A study of Mus musculus with 237 samples.

Results

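The 10 genes described here belong to the fibroblast growth factor (FGF) pathway. They are the receptors Fgfr1, Fgfr2 and Fgfr3, the ligands Fgf7 and Fgf10, the feedback inhibitors Spry1, Spry2 and Spry4, and the transcription factors Etv4 and Etv5. They were listed by symbol and found by Ensembl identifier in a count table of 55335 genes from single cells of mouse embryonic skin. All 10 are in the table. Levels are counts scaled to a column total of 1000000 (CPM), and all 10 genes had at least 1 CPM over the whole table.

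FGF receptors are receptor tyrosine kinases that dimerise on binding an FGF with heparan sulfate and signal through the adaptor Frs2 to the MAP kinase pathway. Sprouty proteins are made in response to that signal and dampen it, and Etv4 and Etv5 are ETS-domain transcription factors commonly read as its targets. In skin, Fgf7 and Fgf10 are made by mesenchyme and bind the epithelial splice form of Fgfr2 on the overlying epithelium, a route used in epidermal growth and in the making of hair follicles and other appendages.

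The study grew skin grafts from stem cells in embryos without p63, and sequenced single skin cells at E14.5 to examine how donor cells take over from the host's surface epithelium. Its labels describe 237 cells of 10 embryos, all C57BL/6N and carried by surrogate ICR mothers. Of the embryos, 3 were wild type and 7 were Trp63 mutants (p63 knockouts), which were edited as zygotes with CRISPR-Cas9 and used as founders, so that edits may differ from mutant to mutant. Cells from both genotypes were sorted as PI-/CD45-/TER119-/CD140a-, copied to full-length cDNA by SMART-Seq HT and sequenced one library per cell.

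The wild-type cells are labelled basal layer (45 cells), intermediate layer (8), K17 high (8), Vim high (2) and K8 K20 high (1), with 1 unknown and 1 to omit. The mutant cells are labelled mutant fibroblast (70), surface ectoderm remnant (50), K5 K14high (28) and neural progenitor (1), with 12 unknown and 10 to omit. Wild-type skin was parted with dispase and its epidermis treated with trypsin, whereas mutant fetuses went straight into trypsin. Cells were then screened by qPCR, for Krt5 in the wild type and Krt8 in the mutants, and against Pdgfra. Genotype, preparation and screening therefore cannot be told apart in any comparison of wild-type with mutant cells.

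The count table also has 237 columns, but their names show no cell. A supplementary table of the study, as read here, pairs 16 of them with cells, all from wild-type embryo WT01. These are 11 basal layer cells, 4 K17 high cells and 1 intermediate layer cell. The other 221 columns could not be assigned to an embryo, a genotype or a label from the labels and tables at hand. They were grouped only by 3 marker states, and no comparison of wild type with mutant was made. The states may still differ in genotype. Basal layer and K17 high are labels of wild-type cells only, and mutant fibroblast and surface ectoderm remnant of mutant cells only. Differences between states therefore cannot be told apart from those of genotype, preparation and screening. With 1 embryo or 1 pooled set of columns behind each value there are no replicates, so all differences are given as values without a test.

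A basal column had Krt5 and Krt14 at 300 CPM or more and Krt8 under 100 CPM. A simple column had Krt8 and Krt18 at 100 CPM or more with Krt5 and Krt14 under 100 CPM, and a mesenchymal column had Col1a1 and Col3a1 at 100 CPM or more. These rules took 54 basal, 66 simple and 79 mesenchymal columns, with 1 column in both of the last groups, and left 39 columns in no state. Of the paired cells, all 11 basal layer and all 4 K17 high cells met the basal rule and the intermediate layer cell met none.

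Column totals ran from 2701500 to 19197138 counts with a median of 6938031. Median totals were 7821784 in basal, 7277067 in simple and 6093577 in mesenchymal columns, and the median number of genes with a count was 11735, 9705.5 and 10759 in the same order. The level of a gene in a state is its count summed over the columns of that state, scaled in the same way by their summed totals, and is called the summed CPM. A column is said to hold a gene where its CPM was 10 or more. The 95% intervals for summed counts are Poisson intervals and cover counting error only, as the libraries were amplified and carry no molecular identifiers. Those for shares of columns are exact binomial intervals, which take columns as independent although an unknown number come from the same embryo, so they describe the number of columns and not the spread among embryos.

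Trp63, the edited gene, had a summed CPM of 553 in basal, 197 in simple and 1.002 in mesenchymal columns. Its CPM in simple columns ran from 0.251 to 3378 with a median of 80.7, and 49 of the 66 held it. A gene count also includes reads outside an edited stretch, so these values check no genotype.

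Epcam, an epithelial adhesion gene that the rules did not use, was held by 54 of 54 basal and 64 of 66 simple columns, and by 3 of 79 mesenchymal columns. Of the 9 mesenchyme markers, Col1a1 and Col3a1 define the mesenchymal state, so the other 7 were read by themselves. All 7 stood at 10 summed CPM or more in mesenchymal columns, with 24716 CPM in sum led by Col1a2. In simple columns 4 of the 7 did, with 1097.7 CPM in sum led by Dcn at 965, and in basal columns 2 did, with 717 CPM led by Dcn at 686. In simple columns Pdgfra, Twist1 and Twist2 were under 1 CPM. Col3a1 was held by 36 of 66 simple columns, against 4 of 54 basal columns. Pdgfra encodes CD140a, against which the cells were sorted, yet 66 of 79 mesenchymal columns held it with a median of 256 CPM. Krt8 was held by 1 and Krt5 by 0 of these 79 columns, so most of them do not show the pattern of the qPCR screen. Blood cells were sorted against as well, and the globin gene Hbb-bs stood at 5221 summed CPM in simple columns, with 191898 CPM in 1 of them. The 3 muscle markers summed to 124 CPM in mesenchymal columns, where Des was held by 19 of 79. In basal columns the 2 suprabasal keratins summed to 283 CPM and the list for periderm or K17 high cells to 640.1 CPM, of which Krt17 gave 638, while the hair placode list summed to 45.02 CPM led by Edar. The endothelial, neural, melanocyte and Merkel lists summed to under 10 CPM in every state. Doublets were not called, and the part of these markers in the values below was not tested beyond the alternatives named.

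Promoter sequences from RefSeq (GRCm38.p6) matched 7 of the 10 genes, with no entry for Fgfr1, Spry4 and Etv4. Shown are the 250 bases before a start site, written in the direction of the gene, for 2 pairs of genes that were often held by the same mesenchymal columns. The pair Fgf7 (chr2:126034408-126034657, + strand) and Fgf10 (chr13:118714449-118714698, + strand) are the ligands. The pair Etv5 (chr16:22438369-22438618, - strand, the second of its entries) and Spry2 (chr14:105896820-105897069, - strand) are targets. Capitals mark matches to a motif.
Fgf7: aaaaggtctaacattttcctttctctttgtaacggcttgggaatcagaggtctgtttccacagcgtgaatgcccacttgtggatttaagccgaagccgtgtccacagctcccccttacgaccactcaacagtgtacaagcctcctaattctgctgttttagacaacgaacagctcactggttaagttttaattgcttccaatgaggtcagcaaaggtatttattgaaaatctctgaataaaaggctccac
Fgf10: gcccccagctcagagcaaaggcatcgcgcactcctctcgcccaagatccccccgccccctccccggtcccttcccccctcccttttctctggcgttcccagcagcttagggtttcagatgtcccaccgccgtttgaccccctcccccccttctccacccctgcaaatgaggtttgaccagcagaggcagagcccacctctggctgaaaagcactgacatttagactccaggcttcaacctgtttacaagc
Etv5: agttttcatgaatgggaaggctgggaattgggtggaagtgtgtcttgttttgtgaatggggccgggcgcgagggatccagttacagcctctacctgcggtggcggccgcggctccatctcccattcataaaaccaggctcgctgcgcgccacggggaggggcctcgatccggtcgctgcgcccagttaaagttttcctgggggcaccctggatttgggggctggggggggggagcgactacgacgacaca
Spry2: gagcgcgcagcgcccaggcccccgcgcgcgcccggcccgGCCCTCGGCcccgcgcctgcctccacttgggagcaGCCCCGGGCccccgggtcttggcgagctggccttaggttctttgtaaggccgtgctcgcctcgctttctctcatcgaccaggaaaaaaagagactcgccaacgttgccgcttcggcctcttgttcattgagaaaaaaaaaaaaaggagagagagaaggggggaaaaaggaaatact
Both strands were searched for the ETS core CCGGAA, the AP-2 motif GCCNNNGGC and the TATA motif TATAAA. The Spry2 window has 2 AP-2 matches, which begin at -211 and -176 from the start site, and the other windows shown have no match to any of the 3 motifs. The first Etv5 entry, not shown because it overlaps annotated exons, has 1 AP-2 match at -111. Over all 32851 mouse promoters of the same length, 12.03% have the ETS core, 13.7% the AP-2 motif and 12.4% the TATA motif. The ligand windows differ in base composition, with 43.6% G and C in Fgf7 and 61.2% in Fgf10.

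Fgfr1 (ENSMUSG00000031565, chr8:25513654-25575718, + strand, GRCm38) encodes a receptor usually tied to mesenchyme. Its summed CPM was 42.1 in basal columns, 46.8 in simple columns and 401 in mesenchymal columns. In mesenchymal columns its CPM ran from 1.88 to 1462 with a median of 358, and 78 of 79 held it. In basal columns it ran from 0 to 351 with a median of 0.281, and 20 of 54 (37.04%) held it. In simple columns it ran from 0 to 335 with a median of 1.43, and 28 of 66 (42.4%) held it. Fgfr1 was thus held by nearly every mesenchymal column and by a part of the epithelial columns, whose upper values reached into the mesenchymal range. On the log2 scale, the ratio of mesenchymal over basal was 3.22, that of mesenchymal over simple 3.07 and that of simple over basal 0.15. Its exons share 164 bp with Gm16159 on the other strand.

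Fgfr2 (ENSMUSG00000030849, chr7:130162451-133123350, - strand) encodes the receptor for Fgf7 and Fgf10 in its epithelial form. Its summed CPM was 854 (95% interval 851 to 857) in basal columns, 39.1 (38.6 to 39.7) in simple columns and 92.4 (91.5 to 93.2) in mesenchymal columns. All 54 basal columns held it, with CPM from 66.9 to 1780.2 and a median of 811. Simple columns ran from 0 to 584 CPM with a median of 4.31, and 26 of 66 (39.4%) held it. Mesenchymal columns ran from 0 to 449 CPM with a median of 65.6, and 48 of 79 (60.8%) held it. Basal columns were the high group, and 38 of the 54 lay above the highest simple column and 44 above the highest mesenchymal column. Simple over basal gave a log2 ratio of -4.41, mesenchymal over basal -3.19 and mesenchymal over simple 1.22. The splice forms IIIb and IIIc, which set the ligands of Fgfr2, cannot be told apart in gene counts. Its model shares 314 bp of exons with Ctbp2 on the same strand.

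Fgfr3 (ENSMUSG00000054252, chr5:33721674-33737068, + strand), a receptor also made in epidermis, had a summed CPM of 53.002 in basal, 14.3 in simple and 0.925 in mesenchymal columns. It was held by 27 of 54 basal columns (median 9.57 CPM, highest 256), by 9 of 66 simple columns (median 0, highest 404) and by 3 of 79 mesenchymal columns (highest 62.4). The order was basal, simple, mesenchymal, the only one of the 3 receptors with its lowest level in mesenchymal columns. When CPM were added over simple columns, 33.6% came from 1 column. The highest value in the table, 1136 CPM, was in a column of no state. Its log2 ratio was -1.82 for simple over basal, -4.81 for mesenchymal over basal and -2.99 for mesenchymal over simple. Its exons share 998 bp with G630022F23Rik on the other strand.

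Levels of the 3 receptors were compared with each other per kilobase of exon. In basal columns Fgfr2 stood at 82.7 summed CPM per kb, Fgfr3 at 7.40 and Fgfr1 at 4.27. In simple columns Fgfr1 stood at 4.74, Fgfr2 at 3.79 and Fgfr3 at 1.997 summed CPM per kb. In mesenchymal columns Fgfr1 stood at 40.6, Fgfr2 at 8.94 and Fgfr3 at 0.129 summed CPM per kb. Column by column, the receptor with the highest level per kb was Fgfr2 in 51 of 54 basal columns and Fgfr1 in 73 of the 78 mesenchymal columns that held a receptor. Simple columns had no such single leader. Fgfr1 led in 21, Fgfr2 in 17 and Fgfr3 in 6 of the 44 that held a receptor, and the other 22 held none of the 3.

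**Figure D1:**
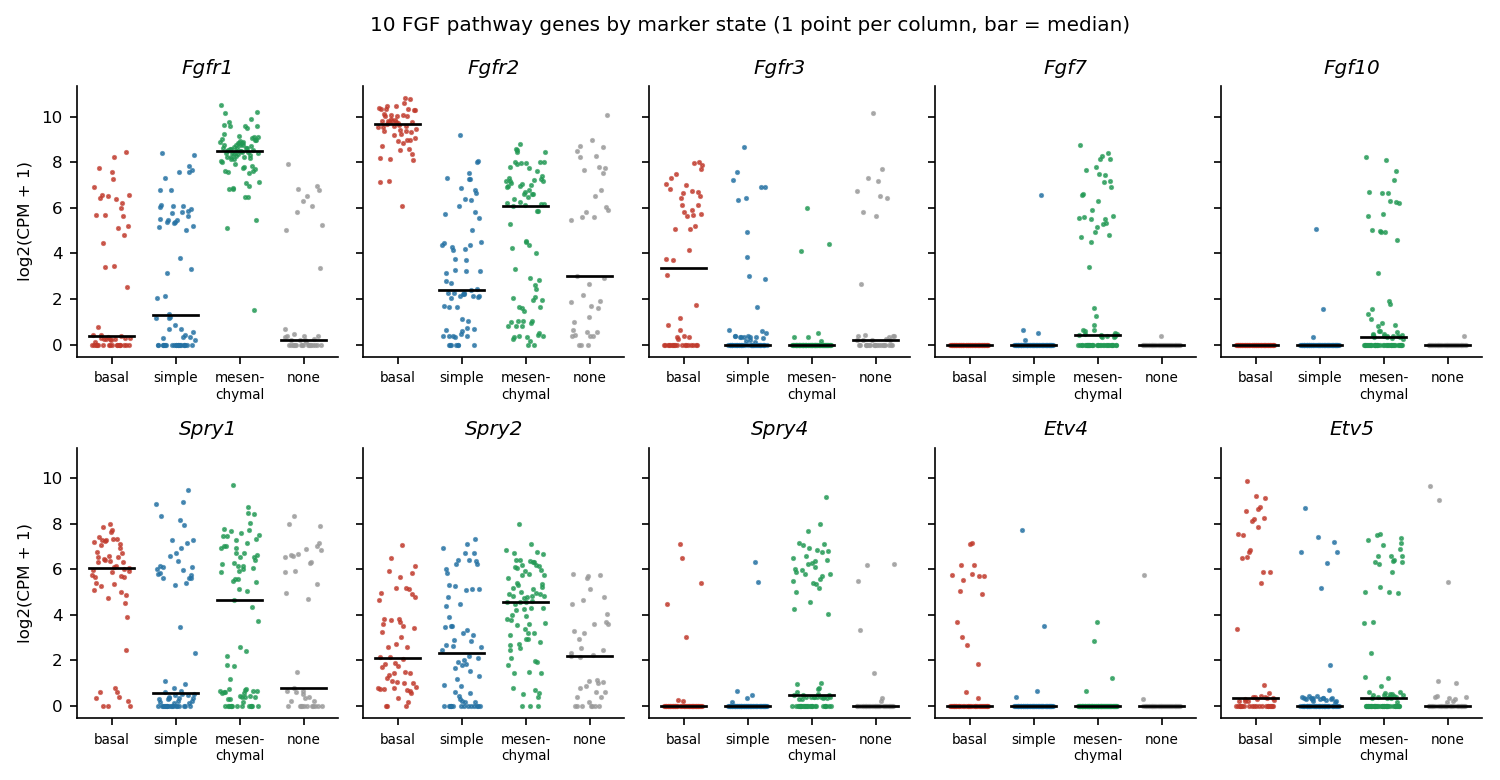
Log2 of CPM plus 1 for the 10 genes in each column of the count table, by marker state, with 1 point per column and a bar at the median of 54 basal, 66 simple, 79 mesenchymal and 39 other columns (1 column met 2 rules and is drawn in both). Fgfr2 fills the upper range in basal columns and Fgfr1 in mesenchymal columns, while Fgf7 and Fgf10 lie at 0 in all basal columns.

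Fgf7 (ENSMUSG00000027208, chr2:126034658-126091185, + strand), also known as keratinocyte growth factor, had 0 counts in all 54 basal columns, which allows up to 0.00649 CPM (3 counts over the state). In mesenchymal columns its summed CPM was 45.5 (95% interval 44.9 to 46.1), 7015-fold above that limit. The limit covers counting error only, so it does not bound what the cells expressed. The mesenchymal columns ran from 0 to 436 CPM with a median of 0.329, and 28 of 79 (35.4%) held it. Fgf7 was therefore held by a minority of mesenchymal columns, while 33 of the 79 had no count of it. In simple columns the summed CPM was 2.33, but 98.8% of the CPM added over these columns came from 1 column with 92.2 CPM, and the next highest had 0.569. That column had 2069 CPM of Krt8, 2348 of Epcam and 3742 of Col3a1, and no count of Col1a1. The log2 ratio of simple over basal was 1.74, and 0.02 without that column. For mesenchymal over simple it was 3.80, and 5.52 without the same column.

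Fgf10 (ENSMUSG00000021732, chr13:118669791-118792115, + strand), a ligand of the same receptor form, also had 0 counts in all 54 basal columns. Its summed CPM in mesenchymal columns was 20.9 (20.4 to 21.3), 3215-fold above the limit of 0.00649 CPM, which again covers counting error only. The mesenchymal columns ran from 0 to 301 CPM with a median of 0.254, and 17 of 79 (21.5%) held it. Both ligands were thus found in mesenchymal columns and not detectable in basal columns at this depth. In simple columns Fgf10 summed to 0.488 CPM, with 93.7% of the added CPM in 1 column of 32.8 CPM, which is not the column high in Fgf7. The log2 ratio for mesenchymal over simple was 3.88. Per kilobase of exon, Fgf7 had 14.01 and Fgf10 4.53 summed CPM in mesenchymal columns. Fgf10 shares 123 bp of exons with Gm16263 on the other strand.

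Spry1 (ENSMUSG00000037211, chr3:37639947-37644598, + strand) encodes a Sprouty inhibitor and had the most even levels of the 10 genes. Its summed CPM was 78.8 in basal, 56.9 in simple and 72.4 in mesenchymal columns. The share of columns that held it was less even, with 44 of 54 basal (81.5%), 27 of 66 simple (40.9%) and 42 of 79 mesenchymal columns (53.2%). The medians were 64.4, 0.476 and 23.8 CPM and the highest values 248.5, 719 and 829 CPM in the same order. A like summed level in simple and basal columns thus came from fewer and higher simple columns. The log2 ratios between states lay between -0.46 and 0.34 from summed counts, and that of mesenchymal over basal, -0.12, was 0.10 with size factors. With the medians in place of summed counts, here called by the median column, the log2 ratio of simple over basal was -5.47. Spry1 shares 710 bp of exons with Gm42922 on the other strand.

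Spry2 (ENSMUSG00000022114, chr14:105891947-105896819, - strand), a second inhibitor of the family, had a summed CPM of 14.55 in basal, 24.3 in simple and 35.9 in mesenchymal columns. It was held by 19 of 54 basal, 23 of 66 simple and 53 of 79 mesenchymal columns, with medians of 3.34, 3.99 and 22.6 CPM. The order was mesenchymal, simple, basal, and the ranges overlapped, with highest values of 133, 158 and 248 CPM in basal, simple and mesenchymal columns. Its log2 ratio was 1.25 for mesenchymal over basal, 0.55 for mesenchymal over simple and 0.70 for simple over basal.

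Spry4 (ENSMUSG00000024427, chr18:38586247-38601415, - strand), the third inhibitor, had a summed CPM of 6.70 in basal, 2.43 in simple and 39.4 in mesenchymal columns. It was held by 4 of 54 basal, 2 of 66 simple and 32 of 79 mesenchymal columns, where it reached 573 CPM. By summed CPM, Spry4 was the Sprouty gene with the widest gap between mesenchymal and epithelial columns. By the median column its log2 ratio of mesenchymal over basal was 0.47, under the 2.44 of Spry2. In log2 terms the ratio was 2.39 for mesenchymal over basal and 3.56 for mesenchymal over simple. Single columns weighed on these ratios, since 1 basal column gave 46.5% and 1 simple column 64.1% of the CPM added over the columns of its state. Without that basal column mesenchymal over basal was 3.19, and without that simple column, the one high in Fgf7, mesenchymal over simple was 4.78. The log2 ratio of simple over basal was -1.17, and it ranged from -2.39 to -0.36 when each column was left out in turn.

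Etv4 (ENSMUSG00000017724, chr11:101769742-101785371, - strand) encodes an ETS factor of the PEA3 group. Its summed CPM was 11.9 in basal, 1.40 in simple and 0.234 in mesenchymal columns. It was held by 12 of 54 basal columns (highest 140 CPM), 2 of 66 simple columns and 1 of 79 mesenchymal columns (12.03 CPM). Etv4 was thus a gene of a few basal columns, and the median was 0 in all 3 states. The log2 ratio was -2.43 for simple over basal and -3.39 for mesenchymal over basal. In simple columns 94.8% of the added CPM came from 1 column of 207 CPM. Without that column simple over basal was -3.53. Mesenchymal over simple was -0.96, and it ranged from -1.15 to 0.14 when each column was left out in turn.

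Etv5 (ENSMUSG00000013089, chr16:22381309-22439719, - strand), of the same group, had a summed CPM of 90.2 in basal, 17.8 in simple and 22.1 in mesenchymal columns. It was held by 19 of 54 basal, 7 of 66 simple and 22 of 79 mesenchymal columns. The medians were 0.275, 0 and 0.280 CPM and the highest values 921, 411 and 186 CPM in the same order. Basal columns that held Etv5 thus reached higher values than the mesenchymal columns that did, whereas the typical column of each state was near 0. Simple over basal had a log2 ratio of -2.28, mesenchymal over basal of -1.98 and mesenchymal over simple of 0.30. By the median column, mesenchymal over basal was 0.01.

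A gene was counted as higher or lower where its summed CPM, with 1 CPM added to each side, differed at least 2-fold. Among the 16151 genes with at least 1 CPM over all columns, 16.7% were higher in simple than in basal columns and 11.7% were lower. Of the 10 FGF genes, 1 was higher (Fgf7) and 5 were lower (Fgfr2, Fgfr3, Spry4, Etv4 and Etv5). The count of 1 is near the share over all genes, and 5 of 10 is above it. Without 1 simple column, Fgf7 was not counted. By the median column 3 were lower, Fgfr2, Fgfr3 and Spry1, whereas Spry4, Etv4 and Etv5 have medians near 0 in both states. The shares over all genes are from summed CPM, and none is given by the median column. The median log2 ratio of the 10 genes was -0.81, against 0.03 over all genes.

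For mesenchymal against basal columns, 17% of all genes were higher and 17.7% lower. Here 5 of the 10 genes were higher (Fgfr1, Fgf7, Fgf10, Spry2 and Spry4) and 4 lower (Fgfr2, Fgfr3, Etv4 and Etv5), both above the shares over all genes, and Spry1 was in neither group. By the median column, for which no share over all genes is given, 2 were higher (Fgfr1 and Spry2) and 3 lower (Fgfr2, Fgfr3 and Spry1). The median log2 ratio was 0.56, against -0.21 over all genes. For mesenchymal against simple columns, 16.7% of all genes were higher and 22.5% lower. Of the 10 genes 5 were higher (Fgfr1, Fgfr2, Fgf7, Fgf10 and Spry4) and 1 lower (Fgfr3), which is under the share of lower genes. By the median column, again without a share over all genes, 4 were higher (Fgfr1, Fgfr2, Spry1 and Spry2) and 0 lower. With Etv4, close to the limit at -0.96, there were 2 lower genes when counts were scaled by size factors, and the median log2 ratio was 0.88 against -0.21 over all genes. These 3 comparisons share their columns and are not independent. The medians stay the same when the genes with 0 counts in basal columns are set to their ratios over the limit of 3 counts. Scaling by size factors moved the median of all genes by 0.15 for simple over basal and by 0.19 for mesenchymal over basal, and no call among the 10 genes in these 2 comparisons changed with it.

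Spry and Etv genes were rarely held all at once. Over the 237 columns, 1 column held all 5, 56 held none and 83 held 1. Of the basal columns 5 of 54 held 4 of them, against 2 of 66 simple and 10 of 79 mesenchymal columns. None of the 5 was held by 27 of 66 simple columns (40.9%), against 5 of 54 basal (9.26%) and 11 of 79 mesenchymal columns (13.9%). Simple columns were thus the state in which columns without any of the 5 were most frequent.

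A list of other genes of the pathway has 52 genes in the table, and 39 of them passed 1 CPM over all columns. Of these 39, 11 (28.2%) were higher and 6 (15.4%) lower in simple than in basal columns, against 16.7% and 11.7% of all genes. Between mesenchymal and basal columns 13 (33.3%) were higher and 12 (30.8%) lower, against 17% and 17.7% of all genes. Between mesenchymal and simple columns 8 (20.5%) were higher and 13 (33.3%) lower, against 16.7% and 22.5% of all genes. Their median log2 ratios were 0.48, -0.32 and -0.15, against 0.03, -0.21 and -0.21 over all genes.

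Among the 20 other ligands, 11 were under 1 CPM over all columns, among them Fgf3, Fgf4 and Fgf8. Fgf13, an intracellular FGF homologue, had 88.8 summed CPM in mesenchymal columns, 2.76 in basal and 0.0441 in simple columns. Fgf14, of the same intracellular group, was highest in simple columns, with 20.6 CPM against 0.00865 in basal and 1.64 in mesenchymal columns, and was held by 15 of 66. Fgf2 had 13.96 CPM in mesenchymal columns and under 3 CPM in the other states. Fgf9 was held by 4 simple and 5 mesenchymal columns and by no basal column. Fgf20, a ligand of the hair placode, was held by 4 basal columns and by no simple or mesenchymal column.

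Among receptors and co-receptors, Fgfr4 had 36.9 summed CPM in mesenchymal columns and under 0.2 in both epithelial states. Flrt2, which encodes a membrane partner of FGF receptors, had 123 CPM in mesenchymal, 17.5 in simple and 13.5 in basal columns. Fgfbp1, a secreted carrier that frees FGFs from the matrix, was an epithelial gene here, with 430.1 CPM in basal, 827 in simple and 0.977 in mesenchymal columns. Esrp1 and Esrp2, the splicing factors known to favour the epithelial forms of the FGF receptors, followed the same division. Esrp1 had 87.4 summed CPM in basal, 122 in simple and 0.0104 in mesenchymal columns. Esrp2 had 172, 437 and 1.06 CPM in the same order. Levels of Fgfr2 and of the Esrp genes thus differed in their order, since simple columns were low in Fgfr2 and high in both Esrp genes.

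The adaptors and transducers Frs2, Grb2, Gab1, Sos1, Ptpn11 and Shc1 differed less than 2-fold between any 2 states, and Frs3 was lower in simple columns. Among feedback genes and targets, Dusp6, a phosphatase that acts on ERK, had 189 summed CPM in basal, 74.1 in simple and 112 in mesenchymal columns. Spred2, a Sprouty-related inhibitor, had 31.3 CPM in basal, 9.49 in simple and 13.3 in mesenchymal columns. Dusp6 and Spred2 were lower in simple than in basal columns, as Etv4 and Etv5 were. Other targets went the other way, with Ier3 at 27.3 CPM in basal and 139 in simple columns. Il17rd, an inhibitor of FGF signalling, had 0.0173 CPM in basal, 7.03 in simple and 8.68 in mesenchymal columns. Egr1, an immediate early gene, was high in all 3 states, from 1984 to 3556 CPM. Of the other receptor tyrosine kinases, Egfr had 158 summed CPM in basal, 35.3 in simple and 31.8 in mesenchymal columns, and Erbb3 had 74.0, 199 and 0.743 CPM.

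**Figure D2:**
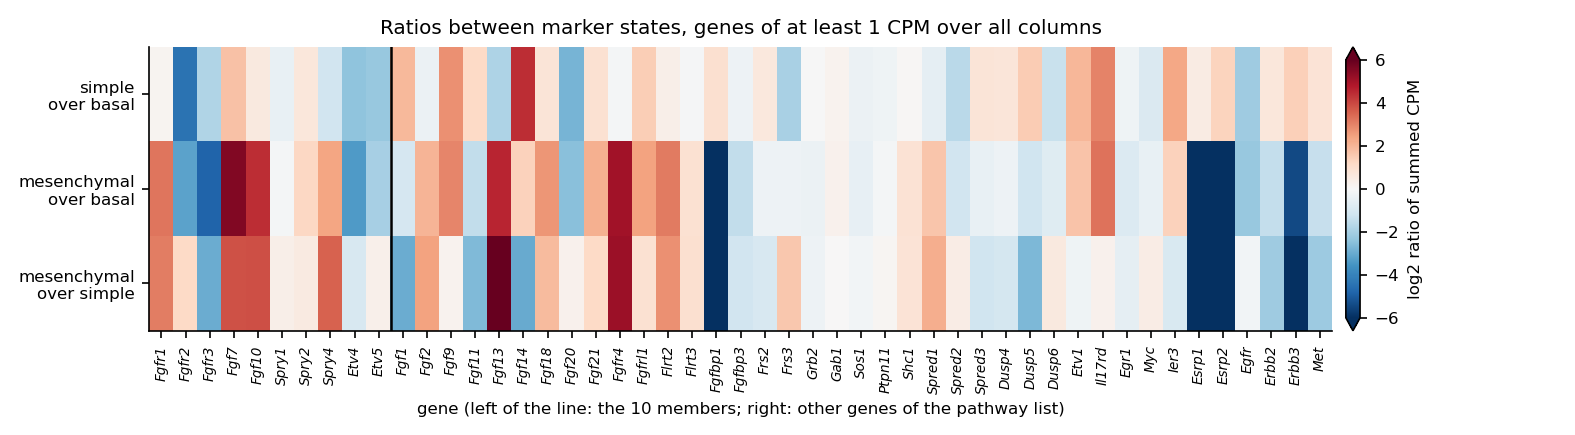
Log2 ratio of summed CPM between marker states for the 10 FGF genes, left of the line, and the 39 other pathway genes with at least 1 CPM over all columns, with colours limited to 6 in either direction. Fgfr2 is lower than basal in simple (-4.41) and mesenchymal columns (-3.19), while Esrp1, Esrp2 and Fgfbp1 are low in mesenchymal columns alone.

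The 16 paired cells are the only columns matched to a label, and all came from embryo WT01. Totals were 7020607 to 9001846 in basal layer cells, 6345186 to 8984376 in K17 high cells and 8244067 in the intermediate layer cell. Of all 16151 genes, 13.4% were higher in K17 high than in basal layer cells and 17.8% lower. Of the 10 FGF genes 5 were higher (Fgfr1, Fgfr3, Spry4, Etv4 and Etv5) and 0 lower, so the higher share was above that of all genes and the lower one below it. The median log2 ratio was 1.40, against 0 over all genes. The 39 other pathway genes did not share this direction, with 9 (23.1%) higher, 10 (25.6%) lower and a median of 0. Fgf7 and Fgf10 had 0 counts in all 16 cells. The K17 high cells also differed in Sox9, a hair follicle gene named after its values were seen, with 111, 291, 379 and 471 CPM against 0 to 6.94 CPM in the basal layer cells. In 1 of them there were 31.7 CPM of Shh, and the part of these genes in the differences was not tested.

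Fgfr1 had 93.9, 118, 210.2 and 299 CPM in the 4 K17 high cells. In the 11 basal layer cells it ran from 0 to 83.1 CPM with a median of 0.222, and the intermediate layer cell had 0.243. It was the 1 gene of the 10 whose K17 high and basal layer cells did not overlap, as was so for 0.303% of all 16151 genes. The log2 ratio was 3.42, and 4.12 without the highest basal layer cell. Fgfr3 had 12.3, 129, 156 and 208 CPM in the K17 high cells and ran from 0 to 58.4 CPM in the basal layer cells with a median of 0.254. The intermediate layer cell had 105 CPM of Fgfr3, above all basal layer cells. The log2 ratio was 3.63, and 4.48 without 1 basal layer cell.

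Fgfr2 did not follow them. It had 290.3, 368, 528 and 1036 CPM in the K17 high cells and ran from 66.9 to 953 CPM in the basal layer cells with a median of 644. The log2 ratio was -0.04, and the intermediate layer cell, at 43.1 CPM, was the lowest of the 16. That cell had 1645 CPM of Krt5 and 12.9 of Krt14.

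Spry1 ran from 39.6 to 168 CPM in K17 high cells and from 0.285 to 136 in basal layer cells, with a log2 ratio of 0.98. It passed the 2-fold limit when any 1 of 7 cells was left out. Spry2 had a log2 ratio of 0.08, which ranged from -0.64 to 0.72 when each cell was left out in turn. Its medians were 26.5 CPM in K17 high and 5.57 in basal layer cells, a log2 ratio of 2.07, and its highest values 69.4 and 133 CPM. Spry4 had 0 counts in all 11 basal layer cells, and 7.13 and 41.1 CPM in 2 of the K17 high cells with 0 in the others. Against a limit of 3 counts in the basal layer cells this is 333-fold, which covers counting error only. The log2 ratio with 1 CPM added was 3.63, or 1.69 without the cell of 41.1 CPM. Differences in the Sprouty genes therefore rested on few cells.

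Etv4 had 0, 11.8, 53.1 and 54.7 CPM in the K17 high cells, and Etv5 had 0.292, 180.0, 187 and 231 CPM. In the basal layer cells Etv4 was at 0 in 8 of 11 and Etv5 had a median of 0.222 CPM. Both reached their highest value of all 16 cells in basal layer cell 2, with 71.7 CPM of Etv4 and 426 of Etv5. The log2 ratio of K17 high over basal layer cells was 1.97 for Etv4 and 1.83 for Etv5. Without basal layer cell 2 it was 4.77 for Etv4 and 4.90 for Etv5, so this 1 cell set the size of both.

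Basal layer cell 2 stood apart in other genes as well. It had 158 CPM of Fgf20, 253 of Shh, 106 of Dkk4, 32.3 of Lhx2 and 676 of Edar, which are genes of the early hair placode. No other paired cell had more than 5.57 CPM of Fgf20. Its Dusp6 (1398 CPM) and Spry2 (133 CPM) were the highest of the 16 cells, and its Fgfr2 (66.9 CPM) was the lowest of all 54 basal columns, where the next lowest had 141. Krt17 was at 613 CPM in this cell and at 4.37 to 106 CPM in the other basal layer cells, while its Krt5, 491 CPM, was the lowest of the 16 cells. Dusp6 was also high in the K17 high cells, with a summed CPM of 577 against 148 in basal layer cells, or 24.6 without basal layer cell 2. Other targets of the pathway list were lower in the K17 high cells, with Myc at 29.2 against 119 summed CPM, Ier3 at 10.9 against 34.4 and Egr1 at 589 against 1378. In each of these, 1 cell gave most of the CPM added over the 4 K17 high cells (97.7% for Myc, 99.2% for Ier3 and 84.0% for Egr1).

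**Figure D3:**
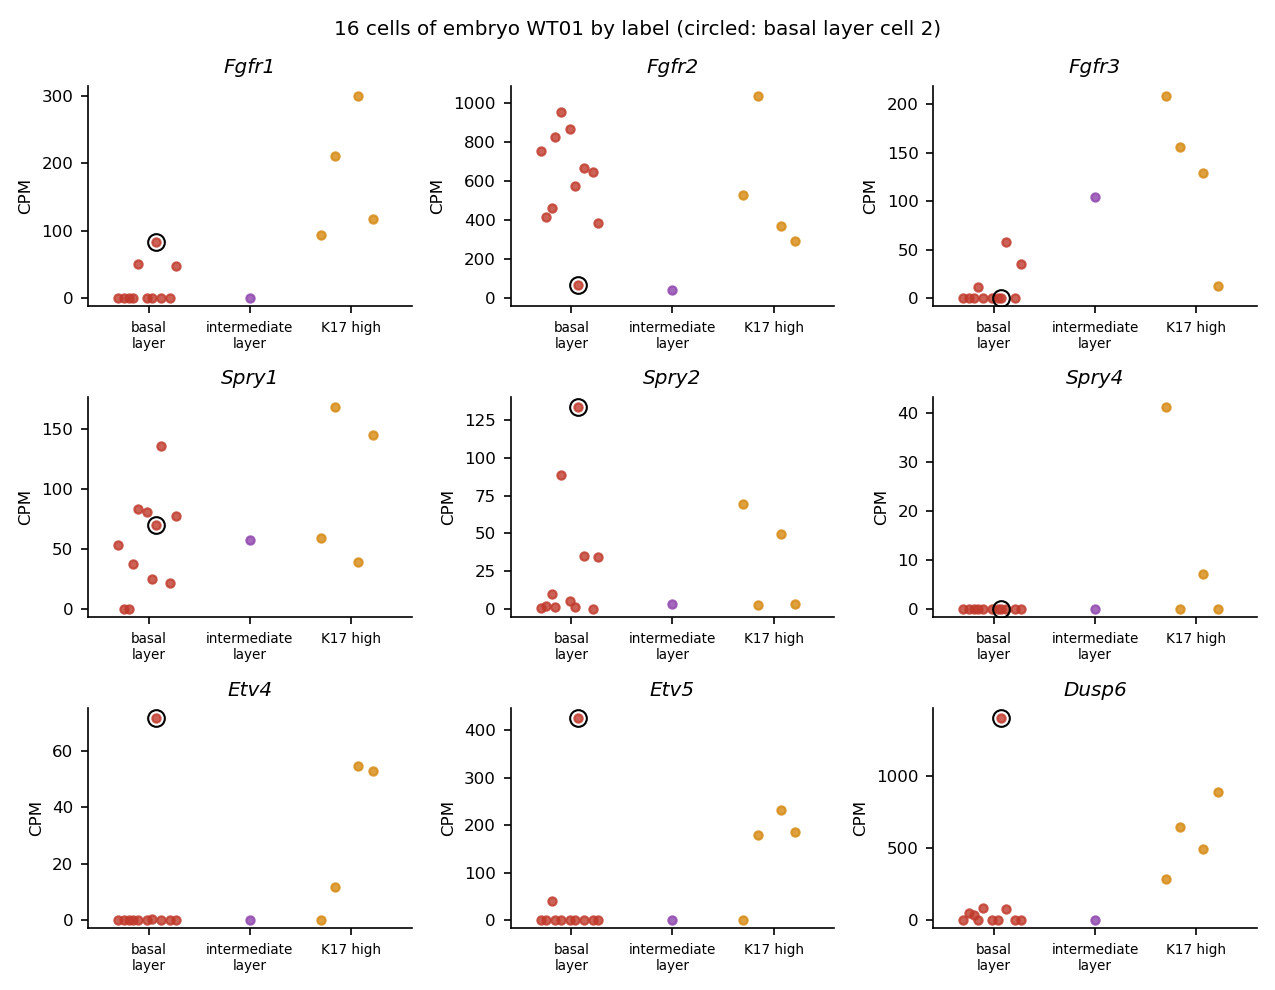
CPM of 8 of the FGF genes and of Dusp6 in the 16 labelled cells of embryo WT01, with 1 point per cell (11 basal layer, 1 intermediate layer, 4 K17 high). The K17 high cells lie above all basal layer cells for Fgfr1, and the circled basal layer cell 2 is highest in Spry2, Etv4, Etv5 and Dusp6 and lowest of the basal layer cells in Fgfr2.

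Fgfr2 was next followed in columns with low basal keratins, meaning both Krt5 and Krt14 under 100 CPM. These were 155 of the 237 columns, of which 66 were simple, 79 mesenchymal (1 of them both) and 11 neither. Fgfr2 was held by 75 of the 155 (48.4%, exact interval 40.3 to 56.5%), with a median of 8.49 CPM and a highest value of 584. At 100 CPM or more there were 39 columns (25.2%) and at 300 CPM or more there were 6 (3.87%). Of the basal columns 48 of 54 (88.9%) reached 300 CPM. Columns with low basal keratins thus often held Fgfr2, but few at the level usual in basal columns.

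The values overlapped, since 52 of the 155 were at or above the lowest basal column, basal layer cell 2. Without that cell, 29 of the 155 were at or above the lowest basal column. By state, Fgfr2 was held by 26 of 66 simple columns (39.4%, exact interval 27.6 to 52.2%), 48 of 79 mesenchymal columns (60.8%, 49.1 to 71.6%) and 2 of the 11 others (18.2%, 2.28 to 51.8%). The highest simple column had 584 CPM of Fgfr2 with 3822 of Krt8, 1826 of Epcam, 0.857 of Krt5 and 1537 of Col3a1. Simple columns that held Fgfr2 did not stand out in Trp63, with a Spearman rho of 0.0123 between the 2 genes over the 66 columns. In basal columns the same rho was 0.476 (n = 54).

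The 39 columns of no state had a median of 6.996 CPM of Fgfr2 and a wide range. Where Krt5, Krt14 and Krt8 were all at 100 CPM or more, 6 columns had 5.37 to 1075.5 CPM of Fgfr2 with a median of 309. Where Krt5 was at 100 CPM or more and Krt14 under 100, 20 columns had 0 to 496 CPM with a median of 53.1, and 12 held it. In 11 columns with both Krt5 and Krt14 under 100 CPM the median was 1.32 CPM.

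**Figure D4:**
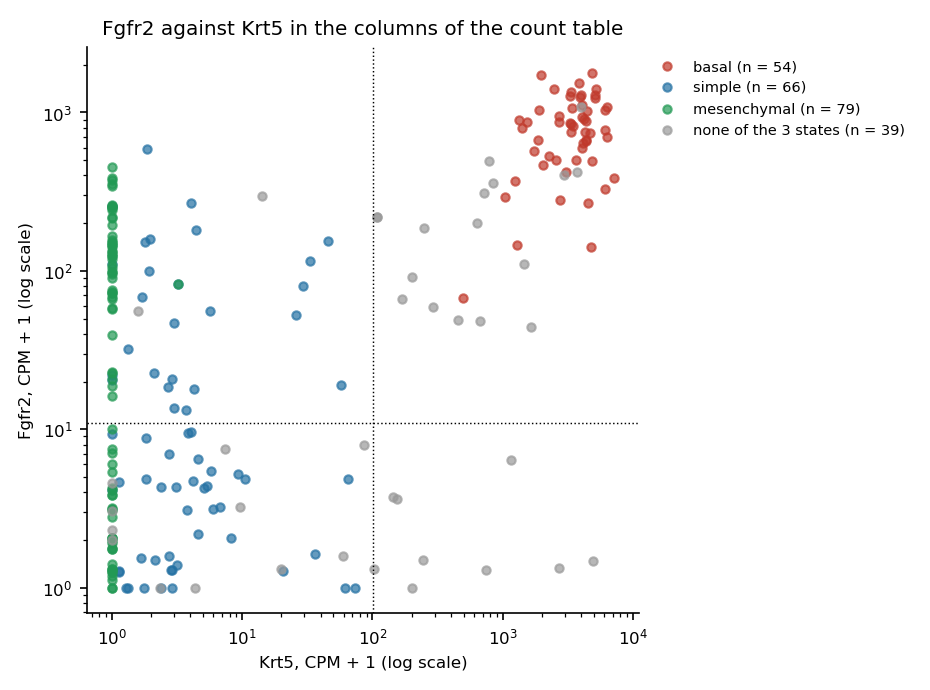
Fgfr2 against Krt5 in CPM plus 1, both axes on a log scale, with 1 point per column coloured by marker state and dotted lines at 10 CPM of Fgfr2 and 100 CPM of Krt5 (1 column met 2 rules and is drawn in both). Basal columns lie at the upper right, from 66.9 to 1780.2 CPM of Fgfr2, and columns with little Krt5 spread from 0 to 584 CPM.

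Within a state, columns that held 1 member were compared with those that held another. These are counts and Spearman correlations over columns of 1 table, which share the protocol and differ in depth, so they describe this table only. Spearman correlations of the 10 genes with the column total lay between -0.283 and 0.233 within each state.

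In mesenchymal columns the 2 ligands went together. Of the 17 columns with Fgf10, 16 also held Fgf7 (94.1%), which is 57.1% of the 28 columns with Fgf7. The rho was 0.474 and Pearson's r of the log2 values 0.748 (n = 79). All columns with either ligand held Fgfr1, as did 78 of all 79 mesenchymal columns. Fgfr2 went against Fgf7 instead, with a rho of -0.524. Of the 28 columns with Fgf7, 12 held Fgfr2 (42.9%), against 48 of 79 among all mesenchymal columns.

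Etv5 and the Sprouty genes were also often held together in mesenchyme. Of the 22 mesenchymal columns with Etv5, 20 held Spry2 (90.9%, against 67.1% of all 79) and 17 held Spry1 (77.3%, against 53.2%). Of the 32 with Spry4, 27 held Dusp6 (84.4%, against 59.5% of all 79). Shares in columns with a ligand are given beside those of all mesenchymal columns, and their differences were not tested. Of the 28 columns with Fgf7, 5 held Etv5 (17.9%, against 27.8% of all 79; rho -0.06), 18 held Spry1 (64.3%, against 53.2%), 17 held Spry2 (60.7%, against 67.1%) and 11 held Spry4 (39.3%, against 40.5%). Of the 17 columns with Fgf10, 2 held Etv5 (11.8%), 9 held Spry1 (52.9%), 8 held Spry2 (47.1%) and 5 held Spry4 (29.4%).

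In basal columns Etv4 and Etv5 went together. Of the 12 columns with Etv4, 11 held Etv5 (91.7%), which is 57.9% of the 19 columns with Etv5 (35.2% of all 54 held Etv5), and the rho was 0.601 (n = 54). Dusp6 was held by 17 of the 19 columns with Etv5 (89.5%, against 61.1% of all 54), and its rho with Etv5, 0.608, was the highest of 8396 genes compared. All 12 columns with Etv4 held Krt17, as did 81.5% of all 54, and 9 of the 12 held Fgfr1 (75%, against 37.04%). Etv4 had a rho of 0.4658 with Krt17 and -0.500 with Krt5, so that basal columns with more Etv4 tended to have more Krt17 and less Krt5. Fgfr2 ran the other way, with a rho of -0.355 with Krt17. The basal set includes the K17 high cells and basal layer cell 2, and these relations were not computed without them.

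**Figure D5:**
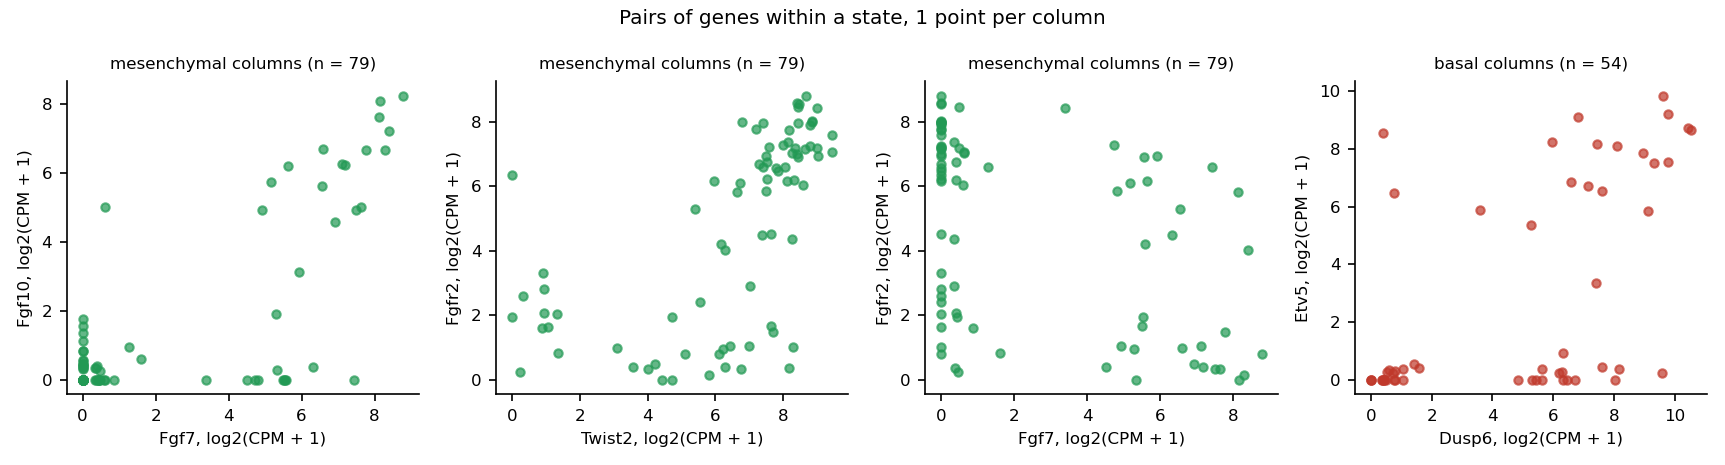
Log2 of CPM plus 1 for pairs of genes within a state, with 1 point per column (79 mesenchymal or 54 basal columns). From left to right, Fgf10 goes up with Fgf7 (rho 0.474), Fgfr2 with Twist2 (0.714), Fgfr2 goes down as Fgf7 goes up (-0.524), and Etv5 goes up with Dusp6 (0.608).

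The genes most like each of the 10 in pattern were taken by Spearman's rho of CPM over all 237 columns, among 12388 genes. For Fgfr1 these were Gm16159 (0.841), which overlaps it on the other strand, Pth1r (0.784), Twist2 (0.780), Gm29100 (0.777) and Lum (0.776). All 5 had their highest summed CPM in mesenchymal columns. For Fgfr2 they were Krt16 (0.661), Gm5424 (0.631), Ass1 (0.6249), Serpinb10 (0.6181) and Pltp (0.615), all highest in basal columns. For Fgfr3 they were Perp (0.559), Fxyd3 (0.534), Krt5 (0.520), Lgals7 (0.519) and Dsp (0.513), also highest in basal columns. Krt5 is itself a gene of the state rules.

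Fgf7 was most like Dpt (0.726), Serpinf1 (0.719) and Fibin (0.707), and Fgf10 was most like Ptgis (0.635), Cd248 (0.623) and Nid2 (0.620). These 6 genes are highest in mesenchymal columns. Spry4 was most like Fbxl13 (0.604), Rhoj (0.60) and Lrrc17 (0.589), which are mesenchymal in the same sense. The other Sprouty genes had weaker likeness, at most 0.432 for Spry2 with Mfap2 and 0.329 for Spry1 with Pard6g. Etv4 was most like Klf15 (0.407), Mapk4 (0.367) and Etv5 (0.360), and Etv5 was most like Dusp6 (0.413), Stxbp6 (0.320) and Eif4e3 (0.292). How far these values over all columns follow the 3 states was not tested, and they say nothing of columns within a state.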

How the data were processed

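The authors trimmed reads with Trimmomatic, aligned them to mm10 with HISAT2, counted them per gene with featureCounts and deposited estimated counts without normalization. DESeq2 1.36.0 is named in the submitters' notes and was not used here. Whether counting used the strand is not stated, so genes with overlapping exons may share reads. Of the nonzero values 23.2% carry a fraction, and all were rounded to whole numbers before CPM were computed from column totals.

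The 16 paired columns were checked against the study's table, and 3762 of 3762 counts of 10 or more stood in 1 ratio per cell within 0.1%. The other 221 columns were used only by marker state. Calls used summed CPM with a pseudocount of 1 CPM among genes of at least 1 CPM over all columns. Exon lengths and coordinates are from the GRCm38 annotation. Log2 ratios, rather than the calls, were tried on simulated counts of genes with known folds. The outcome is not given here, and no conclusion about the members is drawn from it. Alternatives were the mean or median column, size factors, other pseudocounts and thresholds, and leaving out columns.

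The members and gene lists were chosen with earlier results of these data known. Named are the members, the pathway and marker lists, and as genes of like pattern the 5 highest for each receptor and the 3 highest for each other member, among genes with at least 10 CPM in at least 20 columns. All steps ran in Python 3.11.15 (arrays by numpy 2.4.6, tables by pandas 2.3.3, intervals and correlations by scipy 1.17.1, figures by matplotlib 3.10.9).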

Additional observations from a re-analysis of the deposited data

How the results depend on the processing

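No paired analysis was possible because the cells are not matched between groups and come from 1 embryo or an unmapped set of columns. Over all alternatives, 125 of 140 values of the 8 counts and the Fgfr2 percentage stayed within 1.5 times the reported count or inside its interval, and 15 moved. Of 500 values of single ratios, 192 stayed inside their counting interval, 307 moved and 1, of a ratio counted as higher or lower, changed sign. Changes of sign in ratios under 2-fold, such as Spry1 for mesenchymal over basal columns with size factors, are among the values that moved.

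The number of genes higher in simple than in basal columns, 1 as reported, was 0 by the median column, 2 with a pseudocount of 0.1 CPM and 0 without columns that held Col3a1. The number lower, 5, was 3 by the median column. The number higher in mesenchymal than in basal columns, 5, was 2 by the median column. The number lower in mesenchymal than in simple columns, 1, was 0 by the median column and 2 with the mean of the columns, with size factors, with a pseudocount of 0.1 CPM, with thresholds halved and without columns that held Hbb-bs. The share of columns with low basal keratins that held Fgfr2 was 76.8% at 1 CPM and 25.2% at 100 CPM. The log2 ratio of Etv5 for mesenchymal over basal columns reversed to 0.0059 by the median column.

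Leaving out each column in turn gave 0 to 1 genes higher and 4 to 5 lower for simple over basal, 5 to 5 and 4 to 4 for mesenchymal over basal, 5 to 5 and 1 to 2 for mesenchymal over simple, and 5 to 6 and 0 to 0 for K17 high over basal layer cells. Leaving out single columns of the states, and columns with Col3a1, Hbb-bs, muscle markers or suprabasal keratins, was chosen after seeing the data. The cause of these shifts was not tested. The minimum of 1000000 counts and 5000 genes removed no column.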

Other observations

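These values were chosen after they were seen and are descriptions. In the 79 mesenchymal columns Fgfr2 was most like Twist2, with a Spearman rho of 0.714, the highest of 9071 genes, and 47 of the 48 columns with Fgfr2 held Twist2 (97.9%, and 70.1% of the 67 with Twist2). Twist2 was also held by 27 of 28 columns with Fgf7 (96.4%) and 16 of 17 with Fgf10 (94.1%), so this share does not set Fgfr2 apart. Crabp1 came next with a rho of 0.690. Of the 19 mesenchymal columns with Des, a muscle gene, 1 held Fgfr2. Fgf7 had a rho of 0.603 with Dpt and -0.320 with Twist2.

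Fgfr4 was held by 10 mesenchymal columns, and 8 of these held Des. All 6 columns with Myod1 and all 5 with Myf5 held Fgfr4, while 3 of the 10 held Pdgfra, against 66 of 79 mesenchymal columns in all.

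Fgf20 was held by 4 basal columns, with 158, 42.5, 21.9 and 113 CPM. Dusp6 had 1398, 94.7, 170.03 and 1484 CPM and Etv5 had 426, 114, 9.28 and 400.05 CPM in the same order. Etv4 had 71.7 and 140 CPM in the first and the last of them and 0 in the others. The first is basal layer cell 2, and the last, a column without a label, had 175 CPM of Edar and no count of Shh.

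The column with the highest Etv5 outside the basal state had 808 CPM and low basal keratins, and met none of the 3 rules.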
